A study of Mus musculus with 6 samples.

Results

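Peaks of 3 macrophage transcription factors were examined at 10 integrin genes: Itgam, Itgax, Itgal, Itga4, Itgav, Itgb1, Itgb2, Itgb3, Itgb5 and Itgb7. A peak belonged to a gene when the deposited annotation named that gene as the nearest one, and 231 of 134964 peaks in the 6 lists met this rule. All 10 genes had at least 1 peak. The study mapped C/EBPα, IRF8 and JUNB by chromatin immunoprecipitation sequencing (ChIP-seq) in macrophages grown in culture from mouse bone marrow (BMDMs), and asked how the cytokine IL-4 changes the macrophage regulatory state. The cells came from wild-type C57BL/6 mice aged 8 to 12 weeks, were grown for 6 days in L929 supernatant, a source of M-CSF, and were fixed with both DSG and formaldehyde in every group. The control group of each factor received no IL-4, and the other group received IL-4 at 20 ng/ml for 1 h. Each of the 6 groups held 1 sample, so no value below has a replicate error and no test of IL-4 was possible.

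Integrins are cell surface receptors built from 1 α and 1 β chain, and they attach cells to matrix and to each other. In macrophages the β2 chain (Itgb2, CD18) pairs with αL (Itgal, CD11a), αM (Itgam, CD11b) or αX (Itgax, CD11c) to form the leukocyte integrins that bind ICAMs and complement. The αv chain (Itgav) pairs with β3 (Itgb3) or β5 (Itgb5) to bind vitronectin, osteopontin and bridging proteins on dying cells, whereas α4 (Itga4) pairs with β1 (Itgb1) or β7 (Itgb7) to bind VCAM-1 and fibronectin. C/EBPα and IRF8 are lineage factors of myeloid cells, and JUNB is a subunit of the AP-1 factor.

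On mm10, the GENCODE annotation places 3 of the leukocyte α chains on chromosome 7, with Itgal at chr7:127296260-127335138, Itgam at chr7:128062640-128118491 and Itgax close behind it at chr7:128129547-128150657. Itgb2 lies at chr10:77530252-77565708. Itga4 and Itgav are both on chromosome 2, at chr2:79255426-79333123 and chr2:83724397-83806916. Itgb3 lies at chr11:104608000-104670476, Itgb5 at chr16:33829665-33949338 and Itgb1 at chr8:128685654-128733200. Itgb7, at chr15:102215995-102231944, is the only one of the 10 on the minus strand.

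The peaks of the 6 lists were merged where they touched, which gave 88 integrin regions among 60856 in all. Each region is named here by the distance in bp of its highest-scoring peak from the transcription start site (TSS) as the files give it, with a minus sign for upstream. Sequence from the mm10 assembly (GRCm38, RefSeq) is shown for 10 of the regions as 200 bases around the centre of the highest-scoring peak, on the plus strand. Capitals mark matches on either strand to 5 short patterns. These were AP-1 (TGANTCA), C/EBP (TTGCNNAA), the composite of an ETS and an IRF site (GGAANNGAA), PU.1 (AGGAAGT) and a STAT6-type site (TTC, then 3 or 4 bases, then GAA). The ETS core letters are shared by the PU.1 and composite patterns. Of all regions, the same window held an AP-1 match in 14.3%, a C/EBP match in 18.8%, a composite match in 16.7%, a PU.1 match in 24.6% and a STAT6-type match in 14.5%. A match is only a run of letters and not evidence of a site in use.

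The first set shows the strongest region of each gene that had a promoter peak or the most JUNB peaks, because the gene-by-gene results below rest on these regions. Each line gives the region, its place relative to the gene, its mm10 position and its sequence.
Itgax +4278, within the gene, chr7:128133747-128133946: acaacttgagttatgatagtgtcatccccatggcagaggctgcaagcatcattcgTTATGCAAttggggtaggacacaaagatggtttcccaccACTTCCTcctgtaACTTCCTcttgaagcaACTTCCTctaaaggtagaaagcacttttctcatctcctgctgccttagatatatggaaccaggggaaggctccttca
Itgal -5822, upstream, chr7:127290339-127290538: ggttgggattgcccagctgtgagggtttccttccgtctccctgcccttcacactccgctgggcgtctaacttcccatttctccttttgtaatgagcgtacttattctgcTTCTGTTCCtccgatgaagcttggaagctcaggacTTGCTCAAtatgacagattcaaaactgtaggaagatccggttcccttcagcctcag
Itgb2 +20737, within the gene, chr10:77550986-77551185: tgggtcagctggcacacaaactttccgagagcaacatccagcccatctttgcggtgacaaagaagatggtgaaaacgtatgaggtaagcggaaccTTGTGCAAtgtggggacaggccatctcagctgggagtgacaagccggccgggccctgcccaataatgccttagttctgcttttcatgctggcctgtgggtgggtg
Itgav -9509, upstream, chr2:83714789-83714988: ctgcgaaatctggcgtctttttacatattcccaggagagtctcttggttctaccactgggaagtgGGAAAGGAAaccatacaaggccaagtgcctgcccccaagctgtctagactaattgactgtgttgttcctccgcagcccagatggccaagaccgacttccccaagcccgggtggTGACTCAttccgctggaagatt
Itgb3 +39695, within the gene, chr11:104647596-104647795: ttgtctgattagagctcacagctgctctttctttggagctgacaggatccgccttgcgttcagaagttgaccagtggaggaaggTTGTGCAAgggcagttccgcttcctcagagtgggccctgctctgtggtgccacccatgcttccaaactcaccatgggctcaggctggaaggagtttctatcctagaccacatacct
Itga4 -27341, upstream, chr2:79227986-79228185: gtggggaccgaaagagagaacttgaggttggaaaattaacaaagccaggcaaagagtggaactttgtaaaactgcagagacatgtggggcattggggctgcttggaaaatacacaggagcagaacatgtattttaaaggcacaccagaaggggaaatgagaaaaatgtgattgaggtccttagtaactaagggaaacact
Itgb7 -369, promoter, chr15:102232205-102232404: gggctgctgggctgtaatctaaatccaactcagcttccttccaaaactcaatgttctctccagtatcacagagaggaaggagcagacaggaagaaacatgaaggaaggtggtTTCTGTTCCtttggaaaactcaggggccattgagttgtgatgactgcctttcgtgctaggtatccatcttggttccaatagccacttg
The window of Itgax +4278 held a C/EBP match and 3 PU.1 matches, and those of Itgb2 +20737 and Itgb3 +39695 held 1 C/EBP match each. Itga4 -27341 held none of the 5 patterns although its IRF8 scores were high.

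Another 3 regions were chosen for display after their values were seen. Itgam -13636 carried the highest score of any integrin peak, Itgb3 +33074 carried the highest JUNB score, and Itgax -9877 held 5 AP-1 matches.
Itgam -13636, upstream, chr7:128048905-128049104: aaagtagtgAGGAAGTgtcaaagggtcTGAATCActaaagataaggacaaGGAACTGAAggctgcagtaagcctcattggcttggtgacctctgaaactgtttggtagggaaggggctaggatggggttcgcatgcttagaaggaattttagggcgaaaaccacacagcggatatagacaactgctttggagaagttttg
Itgb3 +33074, within the gene over an exon, chr11:104640975-104641174: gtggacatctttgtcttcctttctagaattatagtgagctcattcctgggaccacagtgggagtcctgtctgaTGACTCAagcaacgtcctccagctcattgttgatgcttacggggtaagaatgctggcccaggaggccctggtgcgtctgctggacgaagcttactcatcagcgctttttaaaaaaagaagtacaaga
Itgax -9877, between Itgam and Itgax, chr7:128119592-128119791: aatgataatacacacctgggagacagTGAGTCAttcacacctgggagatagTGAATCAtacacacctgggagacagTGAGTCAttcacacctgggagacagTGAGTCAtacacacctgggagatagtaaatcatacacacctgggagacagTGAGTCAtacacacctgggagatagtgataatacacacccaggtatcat
The AP-1 letters of Itgax -9877 lie in a tandem array of nearly identical units.

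IRF8 had the most peaks at the integrin genes and JUNB the fewest. The C/EBPα lists held 44 integrin peaks without IL-4 and 46 with it. The IRF8 lists held 67 and 63, and the JUNB lists 7 and 4. The whole lists held 24486 and 24612 C/EBPα peaks, 37525 and 42076 IRF8 peaks, and 3940 and 2325 JUNB peaks. The integrin share of a list therefore ran from 0.150% in the IRF8 list after IL-4 to 0.187% in the C/EBPα list after IL-4, and it was 0.178% and 0.172% in the JUNB lists. The read number behind each list is not given in the sources used here, and libraries were made with either of 2 kits, so depth, kit and IL-4 cannot be told apart. Peaks were also assigned to all 7 macrophage marker genes examined, with 130 peaks in all.

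Itga4 carried the most peaks, 57 over the 6 lists, followed by Itgav with 31, Itgb3 with 28, Itgb2 with 24 and Itgb1 with 23. Itgam had 19, Itgax 17, Itgb5 15 and Itgal 12. Itgb7, which encodes a chain best known from gut-homing lymphocytes, had 5 peaks, all of IRF8. The Itga4 regions were spread widely, with 13 of the 21 more than 39 kb upstream of its TSS and 3 within the gene. Regions within each gene were also counted whatever gene they were named for, and 5 of the 11 within Itgb5 carried another name. Per 10 kb of gene, Itga4 had the fewest such regions (0.386) and Itgb2 the most (2.26). Itgax and Itgb3 stood next with 1.42 and 1.12.

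**Figure D1:**
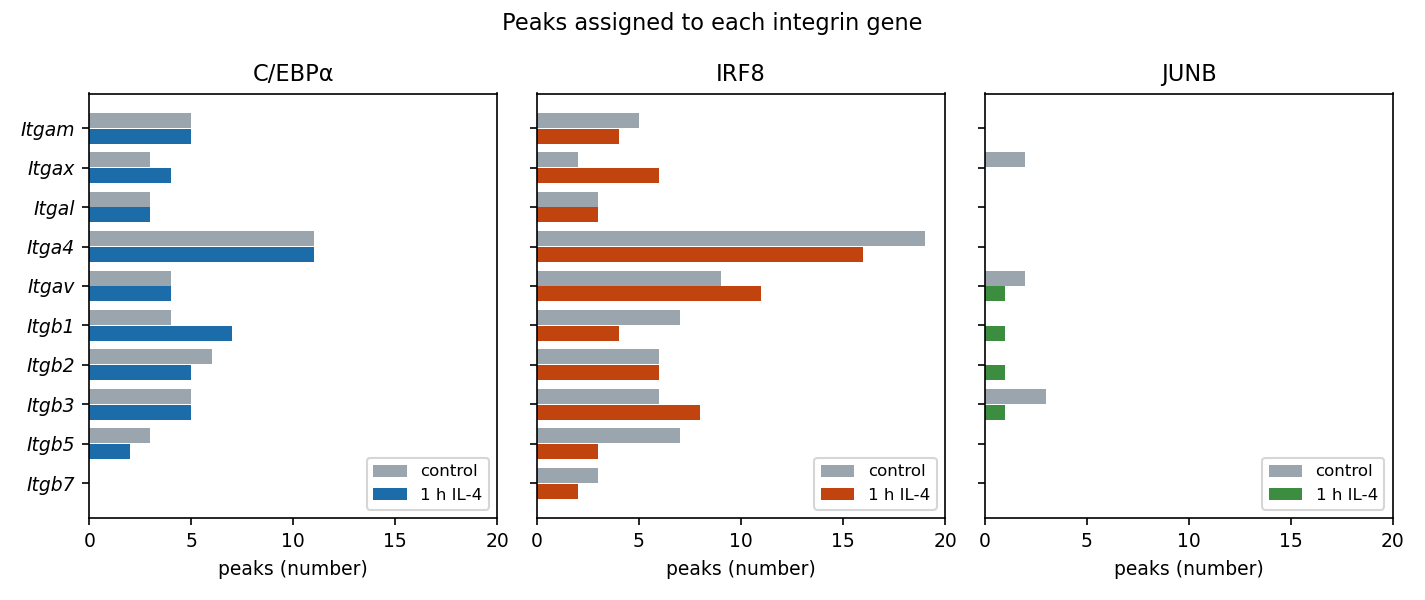
Number of peaks assigned to each integrin gene, with 1 panel per factor, control bars in grey and bars for 1 h of IL-4 in colour. Itga4 has the longest bars for C/EBPα (11 and 11) and IRF8 (19 and 16), JUNB bars exist at only 5 genes, and Itgb7 has IRF8 bars only.

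Most integrin peaks were away from promoters. Intronic peaks made up 52.3% and 50% of the C/EBPα integrin peaks (control and IL-4) and 49.3% and 54.0% of the IRF8 integrin peaks, beside 46.2%, 45.5%, 45.6% and 44.4% of the whole lists. Promoter peaks numbered 3 in each C/EBPα list (6.82% and 6.52%, beside 6.88% and 7.35% of the whole lists). They numbered 7 and 8 in the IRF8 lists (10.4% and 12.7%, beside 7.25% and 9.16%). JUNB had 0 in both lists, beside 2.79% and 2.80% of the whole lists. In the control lists 2 JUNB peaks and 2 IRF8 peaks lay over exons, the JUNB peaks at Itgax and Itgb3 and the IRF8 peaks at Itgax and Itgb2. Exon peaks made up 0.914% of the whole JUNB control list and 1.19% of the whole IRF8 control list. No unit is stated for the peak score. It may be a −log10 p-value or q-value, and such a score rises with sequencing depth. The median score of the C/EBPα integrin peaks was 12.9 without IL-4 and 9.53 with it (whole lists 11.2 and 11.2). Among those present in both conditions it was 14.0 and 13.9. The medians of all integrin peaks were 11.9 and 11.9 in the IRF8 lists (10.3 and 9.61 overall). In the JUNB lists they were 4.88 and 4.45 (7.88 and 6.21 overall). JUNB peaks at integrin genes were thus mostly weak ones of their lists.

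**Figure D2:**
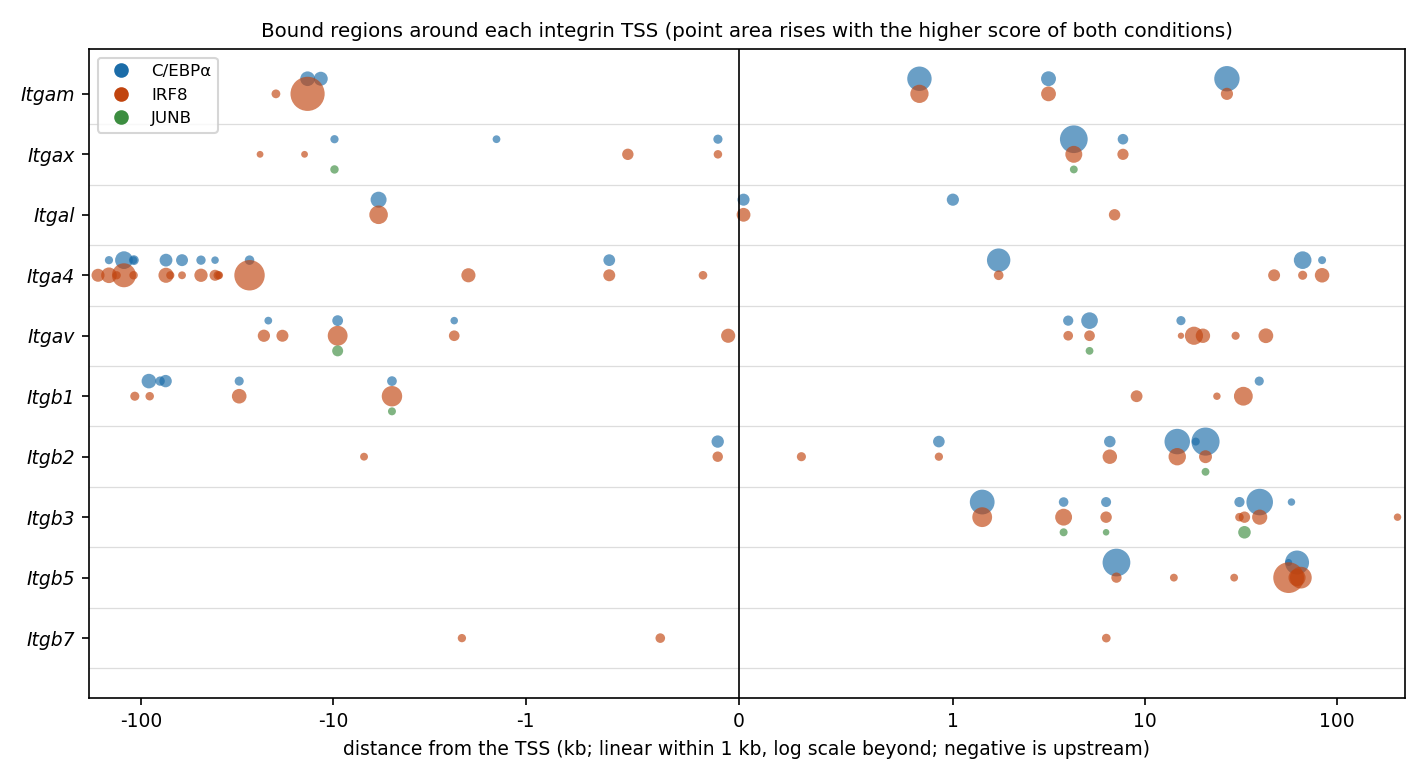
Position of each integrin region that a factor bound, as distance from the TSS in kb (linear within 1 kb and on a log scale beyond), with 1 row per gene and 1 colour per factor. Point area rises with the higher peak score of both conditions, and the largest points are IRF8 at Itgam -13636, Itgb5 +56149 and Itga4 -27341 and C/EBPα at Itgax +4278, Itgb2 +20737 and Itgb5 +7132.

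The β2 integrin genes had strong regions that were bound in both conditions. At Itgam, which encodes CD11b, the IRF8 score at -13636 was 120.48 without and 112.96 with IL-4, while C/EBPα scored 12.69 and 20.69 there. This region lies upstream of the gene on an L2 LINE element, and its window held a PU.1, an AP-1 and a composite match. The strongest C/EBPα region of Itgam lay at +26803 in intron 12, with scores of 60.19 and 65.58. All 5 C/EBPα regions of Itgam were present in both lists, and its 1 changed region was an IRF8 peak at -19926 with a score of 6.28 in control only. Itgam had no JUNB peak in either list.

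Itgax, which encodes CD11c and lies just downstream of Itgam on chromosome 7, differed more between the lists. Its strongest region at +4278, at the border of exon 8 and intron 8, had C/EBPα scores of 78.83 and 75.28 and IRF8 scores of 28.26 and 24.14. JUNB had a peak there in control only, with a score of 4.65. The promoter region at -99 had peaks only after IL-4, with scores of 6.99 for C/EBPα and 5.78 for IRF8. The region at +7711 in intron 14 likewise had peaks only after IL-4, with scores of 9.93 for C/EBPα and 11.41 for IRF8. These 2 were the only ones of the 88 integrin regions gained by more than 1 factor. C/EBPα and IRF8 were gained together in 751 of all 60856 regions. The neighbouring promoter region at -521 went the other way, with IRF8 scores of 11.78 and 7.83. At -9877, in the tandem array between the CD11b and CD11c genes, JUNB scored 5.62 in control only and C/EBPα scored 5.28 and 4.01. Of the 4 IRF8 peaks that Itgax had only after IL-4, those at -24103 and -14139 scored 3.02 each and lie within introns 14 and 24 of Itgam, so that the nearest TSS rather than the gene body assigned them to Itgax.

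Itgal and Itgb2 encode the remaining chains of the leukocyte integrins, and both had promoter peaks of C/EBPα and IRF8. At the Itgal promoter (+21), C/EBPα scored 13.47 in control and 8.82 after IL-4, and IRF8 scored 18.18 and 5.23. At the Itgb2 promoter (-100) both scores were higher after IL-4, 5.46 and 14.22 for C/EBPα and 6.87 and 9.62 for IRF8. The scores of these 2 promoter regions thus differed in direction, which was not tested. Just past the Itgb2 promoter region, at +936, C/EBPα scored lower after IL-4 (12.34 and 2.91), and IRF8 had a peak after IL-4 only (5.34). The strongest Itgal region, at -5822, had almost equal scores of 23.66 and 24.96 for C/EBPα and 34.25 and 32.74 for IRF8. The strongest Itgb2 region, at +20737 at the border of exon 8 and intron 8, scored 58.89 and 81.12 for C/EBPα and 5.24 and 15.69 for IRF8, and it had a JUNB peak only after IL-4, with a score of 4.68. All 4 Itgal regions were bound in both conditions by each factor found there.

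Itgav and Itgb3 held 7 of the 11 JUNB peaks, and they held 31 and 28 of all 231 integrin peaks. Itgav -9509, upstream of the αv gene, was the only integrin region with a peak in all 6 lists. JUNB scored 10.84 there without IL-4 and 4.22 with it, while its IRF8 score was 24.9 and 39.38 and its C/EBPα score 8.24 and 10.38. Its window held an AP-1 and a composite match. The Itgav promoter (-51) had IRF8 peaks only, with scores of 12.24 and 19.2. At Itgav +5165 in intron 1, C/EBPα scored 27.22 and 22.3, a JUNB peak was found in control only (4.56), and an IRF8 peak after IL-4 only (10.14). At Itgav -2352 and +15449, C/EBPα had peaks in control only (4.12 and 6.93) and IRF8 had peaks after IL-4 only (10.1 and 2.35). Among the 88 integrin regions, C/EBPα was lost where IRF8 was gained in 2, both at Itgav, beside 315 of all 60856 regions. JUNB was lost where IRF8 was gained in 1, Itgav +5165, beside 165 of all regions. The lost peaks scored 6.93 or less, and the pattern was not tested.

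Itgb3, the β3 partner of αv, had 3 JUNB regions, more than any other gene. At +33074 over exon 8, JUNB scored 14.73 in control and 3.12 after IL-4, IRF8 scored 11.73 and 5.98, and C/EBPα had no peak. The window holds an AP-1 match inside the exon. At +3786 in intron 1 the factors differed in direction, with a JUNB peak in control only (4.88), a C/EBPα peak after IL-4 only (7.84) and IRF8 scores of 7.86 and 28.05. At +6299, also in intron 1, JUNB scored 2.69 in control only, C/EBPα scored 6.85 and 8.71, and IRF8 scored 11.94 and 7.55. The strongest Itgb3 region was +39695 in intron 10, on an LTR16A1 element, with C/EBPα scores of 65.72 and 72.05 and IRF8 scores of 14.55 and 22.29. At +1427 in intron 1 both were also higher after IL-4, 38.61 and 62.48 for C/EBPα and 25.73 and 39.27 for IRF8.

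Itgb5, the other β partner of αv, had no JUNB peak under its own name. Its strongest region lay at +56149 in intron 5, with IRF8 scores of 91.15 and 97.17 and a C/EBPα peak in control only (3.47). C/EBPα was strongest at +7132 in intron 1, with scores of 78.81 and 59.5, and IRF8 had a peak there in control only (9.3). At +62105 C/EBPα scored 58.51 and 41.63 and IRF8 scored 25.18 and 28.91. At +65004, on an ORR1D2 element, IRF8 scored 47.78 and 23.57. C/EBPα scores at Itgb5 were therefore lower after IL-4 in both of its paired regions. Under its name 3 IRF8 regions were lost, with scores of 9.3, 4.61 and 4.61, and none was gained. Of all IRF8 regions, 15.9% were lost and 25.5% gained. Within the gene but named for Umps, at chr16:33922350-33922562, IRF8 had a peak after IL-4 only (6.57). At chr16:33921600-33921853, also named for Umps, IRF8 had a peak in control only (4.54).

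Among the genes of the VCAM-1 and fibronectin receptors, Itga4 had 21 regions and no JUNB peak. Its strongest region at -27341 had IRF8 scores of 73.61 and 95.04 and C/EBPα scores of 7.66 and 6.06. C/EBPα was strongest at +1738 in intron 2, with 46.35 and 55.61. The promoter region at -608 had a C/EBPα peak in control only, with a score of 12.64, and IRF8 scores of 10.29 and 13.19. This was the highest score of any C/EBPα integrin peak found in 1 condition. The second promoter region, at -169, had IRF8 scores of 5.68 and 5.97. At -109749, C/EBPα (4.29) and IRF8 (5.71) both had peaks in control only, and no other integrin region was lost by 2 factors. C/EBPα and IRF8 were lost together in 370 of all 60856 regions. The region at +83851 lies in an intron of Cerkl, past the end of Itga4.

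Itgb1 had 11 regions, of which 7 were upstream. At -4960, its strongest region, IRF8 scored 41.94 and 31.79, C/EBPα scored 7.27 and 8.09, and JUNB had a peak only after IL-4 (4.85). At +32635 in intron 9 IRF8 scored 13.13 without IL-4 and 35.25 with it. At -91311, on a SINE, the C/EBPα score was 20.47 and 7.62. The 3 regions of Itgb7 were bound by IRF8 alone, with promoter scores (-369) of 6.37 and 7.87, scores of 3.36 and 6.04 at +6313, and a control peak of 5.41 at -2145.

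C/EBPα and IRF8 shared more of their integrin peaks than of their peaks as a whole. In control, 30 of 44 C/EBPα integrin peaks overlapped an IRF8 peak (68.2%, beside 58.1% of the whole list), and after IL-4 34 of 46 did (73.9%, beside 60.6%). Read from the IRF8 side, 30 of 67 (44.8%) and 34 of 63 (54.0%) integrin peaks overlapped C/EBPα, beside 37.9% and 35.3% of the lists. With the 2 conditions of a factor pooled, 34 of the 88 regions (38.6%) were bound by IRF8 alone and 34 (38.6%) by C/EBPα and IRF8. C/EBPα alone bound 11 (12.5%), and all 3 factors bound 7 (7.95%). Over all 60856 regions the shares, in the same order, were 49.7%, 25.1%, 17.3% and 5.56%. In 2 of the 7 integrin regions with all 3 factors, Itgav +5165 and Itgb3 +3786, the 3 factors did not all have a peak in the same condition. JUNB was alone in 0 integrin regions, beside 0.746% of all regions. The other 2 JUNB regions were shared with C/EBPα at Itgax -9877 and with IRF8 at Itgb3 +33074. No test was made of these shares, since regions of 1 gene are not independent.

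The numbers of C/EBPα and IRF8 integrin peaks found in a single condition were near or below those of the whole lists. Here a lost peak is a control peak that overlaps no IL-4 peak, and a gained peak an IL-4 peak that overlaps no control peak. For C/EBPα, 8 of 44 integrin peaks were lost (18.2%) and 10 of 46 were gained (21.7%), beside 21.4% and 22.0% of all its peaks. For IRF8, 14 of 67 were lost (20.9%, beside 21.4%) and 11 of 63 were gained (17.5%, beside 30.4%). For JUNB, 5 of 7 were lost (71.4%, beside 64.2%) and 2 of 4 were gained (50%, beside 39.2%). The lost and gained peaks were weak, as they were over the whole lists. Their median scores were 4.4 and 6.89 at C/EBPα regions (5.62 and 5.885 over the whole lists). At IRF8 regions they were 5.72 and 5.34 (5.33 and 4.99), and at JUNB regions 4.65 and 4.77 (6.79 and 5.03). All 5 lost JUNB peaks drop out when the control list is cut to its strongest 2325 peaks, the length of the IL-4 list, which leaves 0 lost.

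**Figure D3:**
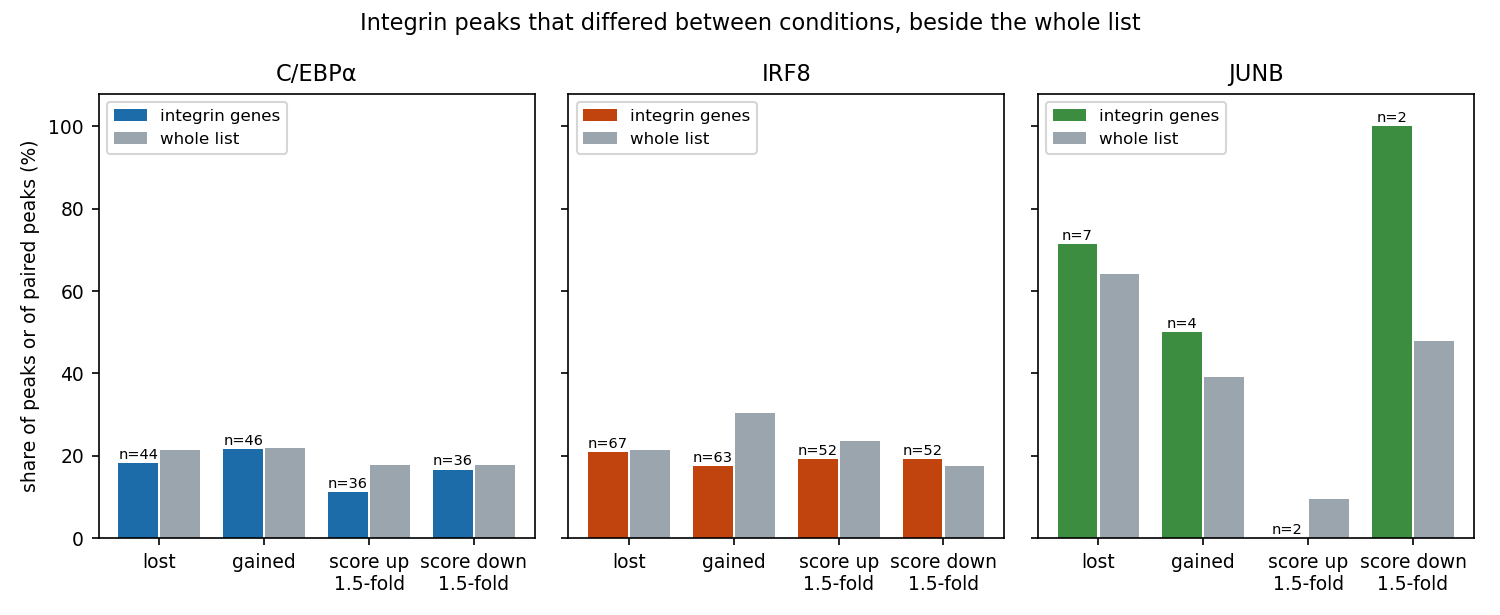
Share of integrin peaks (coloured) and of the whole list (grey) that were lost, were gained, or had a score at least 1.5-fold higher or lower after IL-4, with 1 panel per factor and the number of integrin peaks or pairs above each bar. The gained C/EBPα bars are 21.7% and 22.0%, the gained IRF8 bar is 17.5% beside 30.4%, and the JUNB bars rest on 7, 4 and 2 peaks or pairs.

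Scores of peaks present in both conditions changed little at C/EBPα and IRF8 regions as a group. Of 36 C/EBPα pairs, 17 scored higher and 19 lower after IL-4, with a median log2 ratio of IL-4 over control of -0.07 (whole list -0.0038). A score at least 1.5-fold higher was found in 4 pairs (11.1%, beside 17.7% of all pairs) and at least 1.5-fold lower in 6 (16.7%, beside 17.8%). Of 52 IRF8 pairs, 29 scored higher and 23 lower, with a median log2 ratio of 0.05 (whole list 0.08), and 10 were at least 1.5-fold higher (19.2%, beside 23.6%) and 10 lower (19.2%, beside 17.5%). The JUNB pairs were the 2 at Itgav -9509 and Itgb3 +33074, and both scored lower after IL-4, with log2 ratios of -1.36 and -2.24. Over the whole JUNB list the median log2 ratio was -0.54, with 9.60% of pairs at least 1.5-fold higher and 47.9% at least 1.5-fold lower.

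**Figure D4:**
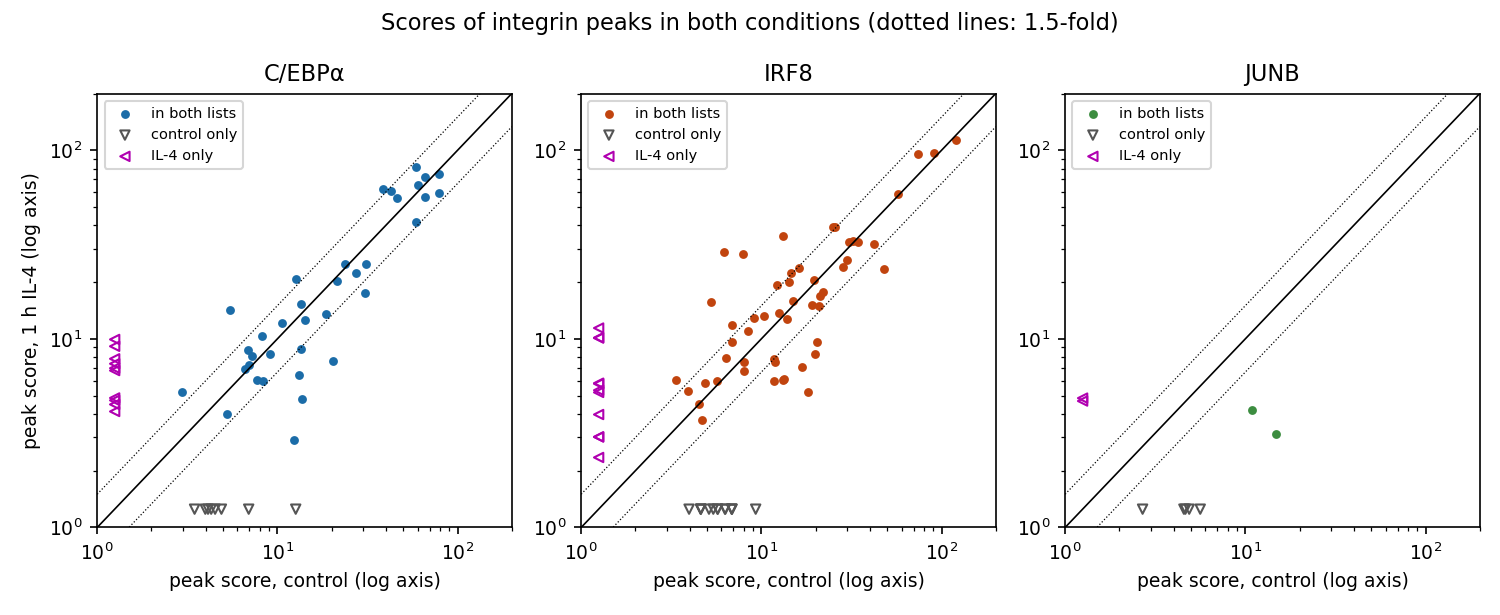
Peak score in control against peak score after 1 h of IL-4 for each integrin peak pair, both on log axes, with 1 panel per factor. Triangles on the axes are peaks found in control only or after IL-4 only and have no second score, the solid line marks equal scores, and both JUNB pairs lie below the dotted 1.5-fold line. The IRF8 point at 6.24 and 28.91 pairs the weaker of 2 control peaks at Itgb5 +62105, whose other control peak scored 25.18.

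Differences between genes in the direction of their pairs were not tested, and most genes had few pairs. Itgb3 scored higher after IL-4 in 3 of 4 C/EBPα pairs (median log2 ratio 0.24) and in 4 of 6 IRF8 pairs (0.43). Itgb2 scored higher in 3 of 5 C/EBPα pairs (0.19) and 3 of 5 IRF8 pairs (0.49). Itgax scored lower in 2 of 2 C/EBPα pairs (-0.23) and 2 of 2 IRF8 pairs (-0.41). Itga4, with the most pairs, was split, with 4 of 9 C/EBPα pairs and 9 of 15 IRF8 pairs higher. In the other genes the C/EBPα medians ran from -0.61 (Itgal) to 0.12 (Itgam). Their IRF8 medians ran from -0.18 (Itgav) to 0.58 (Itgb7). The largest falls among the C/EBPα and IRF8 pairs were at Itgb2 +936 in intron 1, where C/EBPα scored 12.34 without IL-4 and 2.91 with it, and at the Itgal promoter for IRF8. For C/EBPα the largest rise was at the Itgb2 promoter (5.46 and 14.22). For IRF8 it was at Itgb3 +3786 (7.86 and 28.05), leaving aside the Itgb5 +62105 pair, where control had 2 peaks.

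Of the 88 regions, 47 had the same factors in both conditions and 41 gained or lost at least 1 factor, beside 28985 and 31871 of all 60856 regions. A change in 2 or more factors was found in 7 integrin regions (2375 of all regions), namely Itga4 -109749, Itgax -99, Itgax +7711, Itgav -2352, Itgav +5165, Itgav +15449 and Itgb3 +3786. In 4 of these 7, at Itgav and Itgb3, one factor gained a peak where another lost one (832 of all regions). The gained and lost peaks in these 7 regions scored between 2.35 and 11.41.

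**Figure D5:**
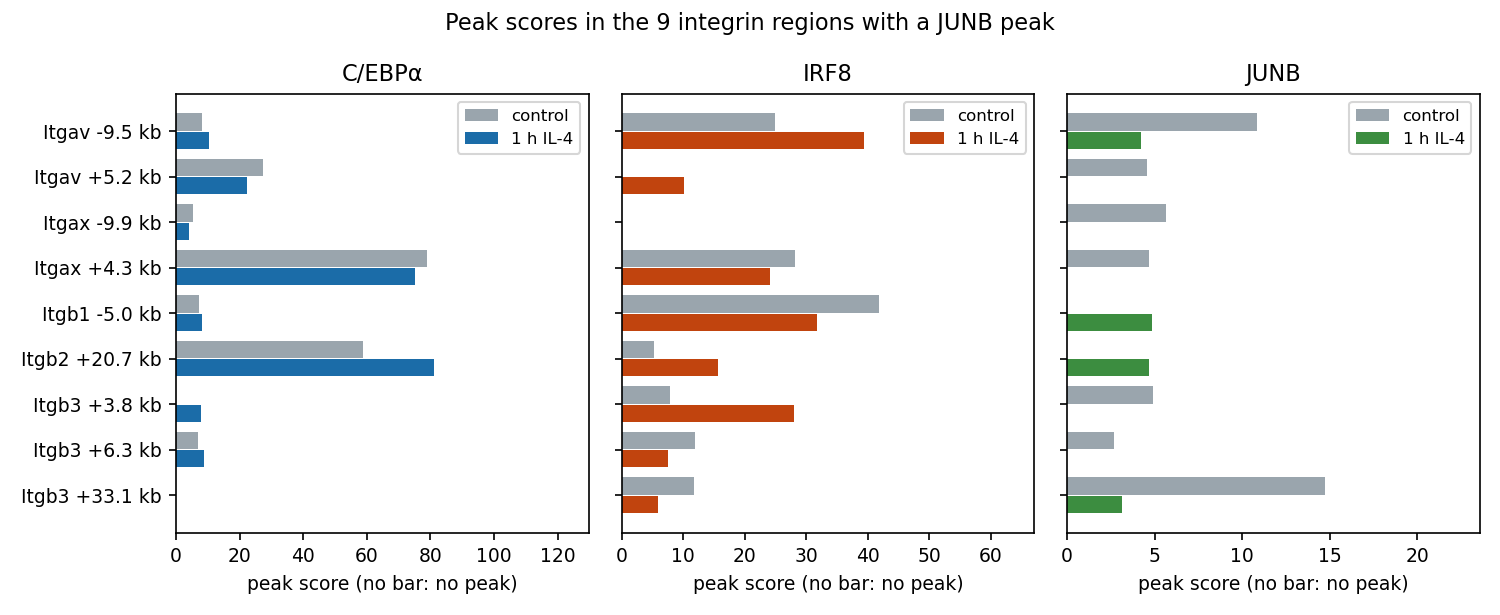
Peak scores in the 9 integrin regions with a JUNB peak, with 1 panel per factor, grey bars for control and coloured bars for 1 h of IL-4, and no bar where a list had no peak. The 2 regions with JUNB bars in both conditions, Itgav -9509 (10.84 and 4.22) and Itgb3 +33074 (14.73 and 3.12), both have the longer bar in control, and the score axes differ between panels.

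The shares of integrin regions that held each of the 5 patterns can be read against those given above for all regions. An AP-1 match was found in 16 of 88 (18.2%), a C/EBP match in 14 (15.9%), a composite match in 14 (15.9%), a PU.1 match in 25 (28.4%) and a STAT6-type match in 8 (9.09%). Among the 9 JUNB regions, 4 held an AP-1 match (44.4%, beside 46.6% of all JUNB regions), namely those of Itgav -9509, Itgax -9877, Itgb3 +3786 and Itgb3 +33074. Among the 53 C/EBPα regions 12 held a C/EBP match (22.6%, beside 31.4%). All 8 regions with a STAT6-type match were bound by C/EBPα, and 7 of them also by IRF8. They made up 15.1% of the 53 C/EBPα integrin regions, beside 16.1% of all C/EBPα regions. For IRF8 the share was 9.21% of 76 integrin regions, beside 14.5% of all IRF8 regions. The 8 include the Itgax promoter region at -99 and Itgav +5165. A repeat element lay under 23 of the 88 regions (26.1%, beside 22.0% of all regions).

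Peaks were also counted at genes of other integrin chains and of proteins that work with integrins. Of 17 other chain genes, 12 had a peak, with 208 peaks in all. Itgb8, whose chain pairs with αv and activates latent TGF-β, had 51 peaks and top IRF8 scores of 219.02 and 214.84. Itga1, a collagen-binding chain, had 41, with top C/EBPα scores of 167.11 and 146.65. Of 16 adaptor and ligand genes, 15 had a peak, with 316 peaks. Ptk2b, the kinase Pyk2 that signals from integrins, and Thbs1, the αv ligand thrombospondin-1, had 54 each. The top JUNB score of Ptk2b was 21.62 without IL-4 and 7.51 with it, and that of Itgb8 was 14.18 and 5.58.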

How the data were processed

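The 6 peak lists came from 6 samples, 1 for each of C/EBPα, IRF8 and JUNB in control BMDMs and in BMDMs given IL-4. The authors aligned reads to mm10, called peaks per sample under a q-value limit and removed blacklisted regions, and the submitters' processing notes name BWA 0.7.10, SAMtools 0.1.19, MACS2 2.0.10 and HOMER 4.2. The deposited columns were peak positions, nearest gene, annotation, distance to TSS and a peak score without a stated unit. The control library and read numbers are not given in the sources used here.

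Integrin peaks were those with a member as nearest gene. Peaks overlapping by 1 bp or more were shared, and shared peaks were paired one-to-one by largest overlap for score ratios. Peaks of all lists that overlapped were merged into regions. With 1 sample per group no test was run, and counts stand beside the whole list. The regions described were, for each gene, the highest-scoring one and, over all genes, those bound in all 6 lists, gained or lost by 2 or more factors, gained or lost by JUNB, or holding a promoter peak. A few regions outside this rule were added after their values were seen: Itgam -19926 and +26803, Itgax -24103 and -14139, Itgb3 +1427 and +33074, Itgb5 +7132, +62105 and +65004, Itga4 +1738 and +83851, Itgb1 +32635 and -91311, Itgb2 +936, and the weaker Itgb7 regions. The members and gene lists were chosen with earlier results of these data known. Python 3.11.15, pandas 2.3.3, scipy 1.17.1 and pysam 0.24.0 were used, and the overlap scripts passed 6 of 6 checks on simulated peaks. The peaks at marker genes of other cell types are not reported here. Older symbols of 2 marker genes were matched through RefSeq synonyms. The alternatives tried were a stricter overlap, a score minimum of 5, rank matching, a distance limit of 100000 bp, gene bodies with 10000 bp around them, and scaling of the scores.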

Additional observations from a re-analysis of the deposited data

Results flagged for a closer look

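The differences between the IL-4 and control lists of integrin peaks had different signs between the factors. The number of integrin peaks after IL-4 minus that in control was 2 at C/EBPα, -4 at IRF8 and -3 at JUNB, while the whole lists went from 24486 to 24612, from 37525 to 42076 and from 3940 to 2325 peaks. The median log2 ratio of scores, IL-4 over control, was -0.0715 in the C/EBPα lists, 0.0486 in the IRF8 lists and -1.80 in the JUNB lists, the last over 2 pairs. The C/EBPα median turned to 0.0032 with a minimum score of 5. In 4 of the 88 integrin regions, Itgav -2352, Itgav +5165, Itgav +15449 and Itgb3 +3786, one factor gained a peak where another lost one. The same was found in 832 of all 60856 regions. The gained and lost peaks of the 4 integrin regions scored between 2.35 and 10.14. With 1 sample in each group none of these differences could be tested.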

How the results depend on the processing

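No paired analysis was possible because each factor and condition had 1 sample, and for the same reason no replicate could be left out. A minimum score of 5 lowered the lost C/EBPα integrin peaks from 8 to 5, the lost JUNB peaks from 5 to 3, the gained JUNB peaks from 2 to 0 and the regions bound by all 3 factors from 7 to 1, and it turned the median C/EBPα log2 ratio from -0.07 to 0.0032. It left 3 JUNB peaks in control and 0 after IL-4, so that no JUNB pair remained to give a ratio. Cutting the longer list to the length of the shorter one lowered the lost JUNB peaks to 0, since these peaks were weak ones of a longer list. In the other 41 comparisons with an alternative, the counts stayed within 1.5 times of those reported and the ratios kept their sign. Scaling by the list median gave a JUNB log2 ratio of -1.46. The total of 231 integrin peaks became 213 within 100000 bp of the TSS, 194 with a score of 5 or more, and 193 in gene bodies with 10000 bp around them. Sequencing depth is unknown and sets how many weak peaks a list holds, so a peak missing from a list was not detected and is not shown to be absent.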

Other observations

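Another 24 peaks lay in or within 10000 bp of an integrin gene but carried another gene as nearest, 18 of them Umps, whose TSS lies past the end of Itgb5. The strongest, at chr16:33950940-33951401 just beyond the end of Itgb5, had a C/EBPα score of 168.25 in control and 165.26 after IL-4, above any C/EBPα score under the 10 integrin names. Within Itgb5 itself, at chr16:33922319-33922490, a JUNB peak scored 7.52 in control. Upstream of Itgb2, at chr10:77522146-77522305, a JUNB peak named for Fam207a scored 5.18 after IL-4.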
